A study of Saccharomyces cerevisiae with 90 samples.

Results

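The 10 histone genes of budding yeast described here were chosen by symbol among the 5794 genes measured in either of 2 array tables of filamentous growth and of Ras and cyclic AMP signalling. HTA1 (locus YDR225W) and HTA2 (YBL003C) encode histone H2A. HTB1 (YDR224C) and HTB2 (YBL002W) encode H2B. HHT1 (YBR010W) and HHT2 (YNL031C) encode H3, and HHF1 (YBR009C) and HHF2 (YNL030W) encode H4. HHO1 (YPL127C) encodes the linker histone H1, and HTZ1 (YOL012C) encodes the H2A variant H2A.Z. Probe sets annotated to 1 of these symbols alone were used, and the rule itself uses no measured level.

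Core histones wrap DNA into nucleosomes, and the yeast genes for them lie in divergent pairs, with an H2A gene beside an H2B gene or an H3 gene beside an H4 gene. In the annotation of assembly R64, HTA1 neighbours HTB1 on chromosome IV, HTA2 neighbours HTB2 on chromosome II, HHT1 neighbours HHF1 on chromosome II and HHT2 neighbours HHF2 on chromosome XIV. Transcription of the core genes peaks in late G1 and S phase, when DNA is copied. The factor SBF and the activators Spt10 and Spt21 turn them on, and the HIR complex with the chaperones Asf1 and Rtt106 holds them off outside S phase, all but HTA2 and HTB2 being under HIR control. HTZ1 is placed in chromatin by the SWR1 complex.

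The first table holds 70 arrays in 21 groups of colonies grown for 10 h, all from the strain the labels call G85. Wild-type G85 grew in the yeast form on synthetic complete dextrose medium (6 arrays, of which replicate 6 has no genotype label) and in the filamentous form on synthetic low-ammonium dextrose medium with uracil and histidine (3 arrays). All mutants grew on the low-ammonium medium. They carry tec1::bcKanMX4 or cup9::bcKanMX4 (5 arrays each), sfl1::bcKanMX4, sok2::bcKanMX4, skn7::bcKanMX4 or yap6::NatMX4 (3 arrays each), or 1 of 13 pairs of these alleles (3 arrays each). Tec1 activates filamentation genes, Cup9 represses peptide uptake, Sfl1 represses flocculation genes, Sok2 acts downstream of protein kinase A, Skn7 acts in the response to oxidative stress, and Yap6 is a basic leucine zipper factor. The second table holds 20 arrays in 10 groups of MATa/alpha diploids grown in SC medium, all ura3-52/ura3-52. The wild type carries plasmid pRS316 (4 arrays). Strains ira1::HIS3/ira1::LEU2 and ira2::HIS3/ira2::LEU2 lack a GTPase-activating protein of Ras, and ira1RA is the ira1 strain with pRS316-IRA1RA, in which an arginine is replaced by alanine (2 arrays each). The plasmids pRS316-RAS2V19 and pRS316-RAS2A22 carry a dominant-active and a dominant-negative RAS2, with no other RAS allele listed (ras2v19 and ras2a22, 2 arrays each). The ira1, ira1RA and ira2 strains are also leu2::hisG and his3::hisG on each homologue. The last strains carry ras1::HIS3, ras2delta and pde2::kanR on each homologue, with leu2::hisG, his3::hisG and TRP1+/trp1::hisG, and received 0, 0.5, 1 or 2 mM cAMP (2, 1, 1 and 2 arrays). The 0 mM arrays came from strain SR959 with pRS315 and the others from strain SR957, whose label gives no plasmid. Strain, plasmid and cAMP therefore cannot be told apart between 0 mM and the other doses.

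Not every histone gene could be followed in the colonies. In the first table, HTB1, HTB2, HHO1 and HTZ1 had 1 probe set each, while the H2A, H3 and H4 genes shared 5 probe sets annotated to both copies of a pair. These 5 were left out, so 4 of 10 histone genes were followed in colonies. In the second table each of the 10 had 1 probe set of its own, though whether near-identical copies cross-hybridise was not tested. A level of 1 probe set is not comparable with that of another, so levels are set against each other only within a gene. Where HTB1 minus HTB2 is given, its size has no meaning and only its change between groups is read. All levels and changes below are on the log2 scale, RMA values in colonies and the log2 of median-scaled signal in SC medium.

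Some libraries read against their labels. In the library labelled tec1 replicate 1, TEC1 stood at 8.68 and CUP9 at 4.07, and in the library labelled cup9 replicate 4, TEC1 stood at 4.57 and CUP9 at 8.21. CUP9 was at 8.04 to 8.38 in the 3 arrays labelled cup9-yap6, against 3.68 to 5.11 in 16 other arrays labelled as lacking it. Apart from these, TEC1, SFL1, SOK2 and SKN7 were lower in every array labelled as lacking them than in any other, and for YAP6 the ranges overlapped, at 2.32 to 3.07 against 2.84 to 4.34. In SC medium IRA1, IRA2, RAS2 and PDE2 were at 2.31 or lower in the strains labelled as lacking them, as IRA2 also was in wild-type array 1, while RAS1 was higher in the ras1::HIS3 strains (7.08 to 8.50) than in the 4 wild-type arrays (4.51 to 5.40). RAS2 stood at 9.33 and 9.56 in ras2a22, and at 6.04 and 4.94 in ras2v19, no higher than the wild type (5.56 to 6.78). The 4 wild-type SC arrays also fell into pairs: arrays 3 and 4 had a Spearman correlation of 0.95 with each other over all genes, against 0.784 to 0.79 for every other pair of them, within the 0.779 to 0.972 seen between replicates of other SC groups.

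In 10 h colonies, going from the yeast to the filamentous form, the H2B genes changed in opposite directions: HTB1 rose and HTB2 fell. The medium changed along with the form, so form and medium cannot be told apart in any comparison of the forms. HTB1 stood at 11.42, 11.44, 11.45, 11.47, 11.38 and 11.39 in the yeast-form arrays and at 11.95, 12.13 and 12.01 in the filamentous arrays. All 3 filamentous arrays were above all 6 yeast-form arrays, as held for 29.2% of all genes. HTB1 rose by 0.60 ± 0.20 (SE, limma adjusted p = 0.0099, n = 3 against 6). HTB2 stood at 11.39, 11.52, 11.55, 11.26, 11.42 and 11.49 in the yeast form and at 10.97, 11.17 and 10.88 in the filamentous form, where each array was below each yeast-form array, as held for 26.1% of genes. HTB2 fell by 0.43 ± 0.13 (SE, limma adjusted p = 0.0048), but with quantile normalization between the arrays the change was -0.20 and did not pass the test (adjusted p = 0.161). The count of 2 called genes among 4 is read against 44.9% of all 5562 genes called in this comparison. In such bulk samples, a different share of cells in S phase and a different amount of histone mRNA per cell cannot be told apart.

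Within an array the opposite changes add up, so that HTB1 minus HTB2 restates both. HTB1 minus HTB2 averaged -0.01 ± 0.12 (SD, n = 6) in the yeast form and 1.02 ± 0.10 (SD, n = 3) in the filamentous form. The difference between the forms was 1.04, or 0.98 with quantile normalization, which lowered the fall of HTB2 and raised the rise of HTB1 to 0.78. It is given as a description with no test, since it was formed with both changes known. In the 61 mutant arrays on the same low-ammonium medium, HTB1 minus HTB2 ranged from -0.46 to 1.03, and only 1 of them, a cup9 array, reached the lowest filamentous wild-type value of 0.96. Group means ran from 0.01 in skn7 and 0.10 in tec1-skn7 to 0.85 in cup9-yap6, where CUP9 was not low.

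**Figure D1:**
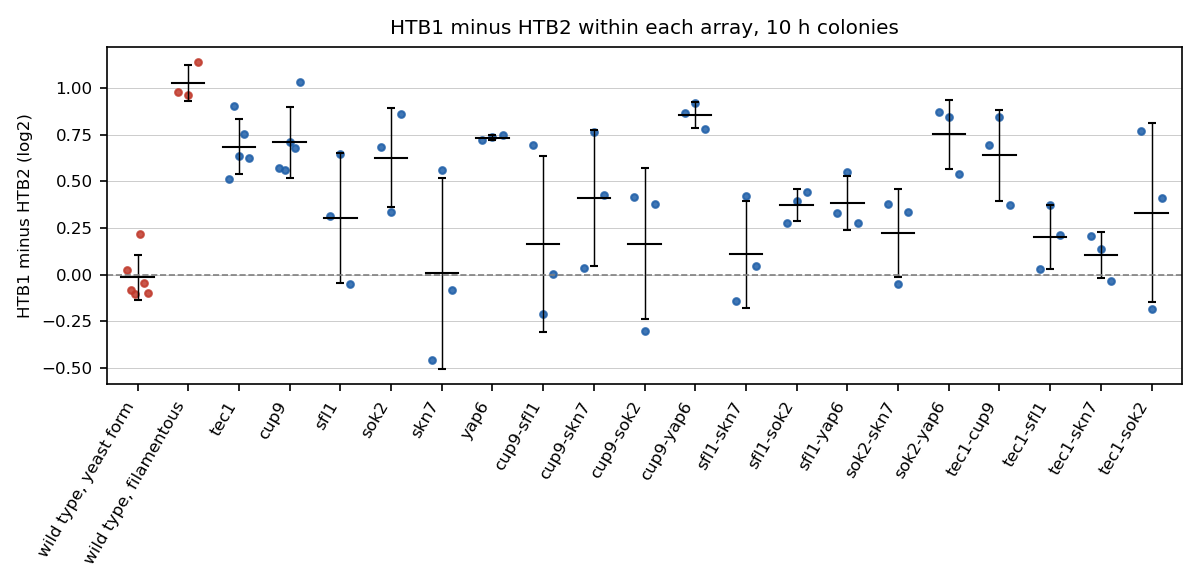
HTB1 minus HTB2 within each array (log2, vertical axis) by group of 10 h colonies, with points for arrays (wild type in red), horizontal bars for means and error bars for the SD. The 3 filamentous wild-type arrays sit at 0.96 to 1.14, above the 6 yeast-form arrays and above all but 1 of the 61 mutant arrays.

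The linker histone and the H2A variant did not pass the test between the forms. HHO1 was at 7.59 to 8.22 with a median of 8.14 in the 6 yeast-form arrays and at 8.53, 7.95 and 8.41 in the filamentous arrays, which overlap (change 0.28 ± 0.17 SE, adjusted p = 0.179). HTZ1 was at 9.33 to 9.57 with a median of 9.44 in the yeast form and at 9.08, 9.34 and 9.06 in the filamentous form, with only the second of these inside the yeast-form range (change -0.28 ± 0.14 SE, adjusted p = 0.095). With the replicate number as a block, HTZ1 did pass (-0.26, limma adjusted p = 0.038). Residuals of same-numbered arrays of the forms correlated weakly, at 0.113 to 0.254, and whether they shared a day is not known. No share of all genes is given for that fit.

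Genes that act on histones moved between the forms as follows, with the lists chosen when earlier results of these data were known. Of 12 regulators of histone genes, 5 rose and 0 fell, among them HPC2 and HIR3 of the HIR complex (0.75 and 0.71) and SWI4, the DNA-binding subunit of SBF (0.67). Their median change was 0.30, against 0.05 over all genes. Of 11 SWR1 complex genes, 6 rose and 1 fell, with RVB2, which encodes a helicase-like subunit, at 0.63 and YAF9, a reader of histone acetylation, at 0.58. Of 14 histone modifying enzymes, 5 rose and 0 fell, among them RAD6 and BRE1, which ubiquitinate H2B (0.87 and 0.62), and the H3 methyltransferase DOT1 (0.70). Among 13 chaperone and assembly genes, 3 rose and 1 fell, the last being CAC2 of chromatin assembly factor CAF-1 (-0.82). Over all genes 21.6% rose and 23.2% fell.

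Cell cycle genes moved with the forms too, and their part in the histone values was not tested. Of 19 genes expressed at G1/S, 7 rose and 2 fell (median change 0.27), and the list's mean level per array was 6.63 to 6.72 in the yeast form and 6.74 to 6.87 in the filamentous form. The 2 that fell were RNR1, the large subunit of ribonucleotide reductase, at -1.07, and the repressor YOX1 at -1.06. Of 9 M/G1 genes 0 rose and 8 fell (median change -0.98), among them the daughter-cell genes DSE4 (-1.63) and EGT2 (-1.50). Of 9 G2/M genes, CDC5 rose and CLB2 fell. Of 13 haploid-specific genes, 0 rose and STE3 fell, with mean levels of 4.32 to 4.50 against 4.39 to 4.51. Of 8 meiosis genes, 0 passed in either direction, at 3.49 to 3.64 against 3.57 to 3.65.

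**Figure D2:**
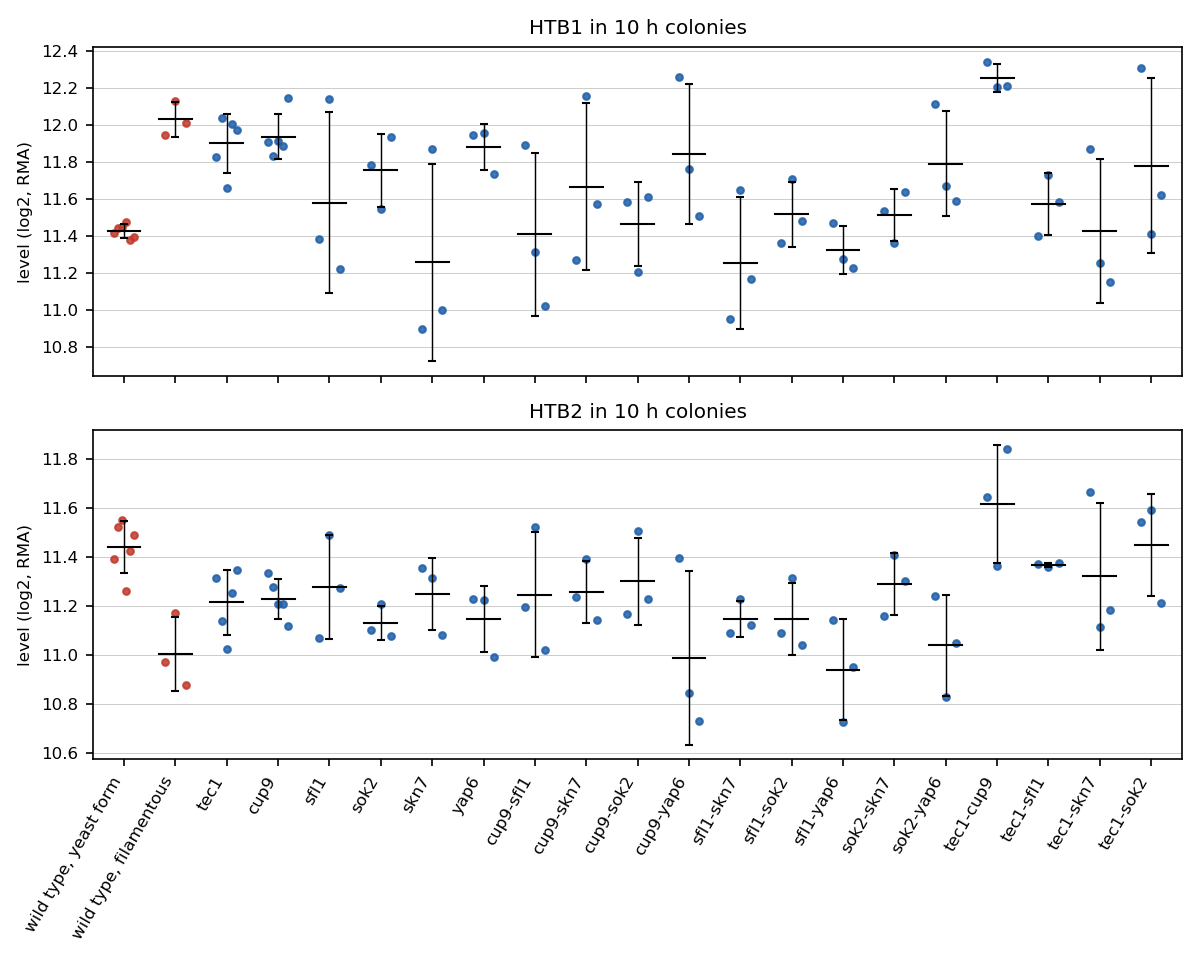
HTB1 (top) and HTB2 (bottom) levels on the log2 scale in 10 h colonies by group, with points for arrays (wild type in red), horizontal bars for means and error bars for the SD. HTB1 is highest in tec1-cup9 (12.21 to 12.34) and filamentous wild type, and its replicates spread widely in skn7 (10.90 to 11.87).

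Against the filamentous wild type, loss of SKN7 came with lower HTB1 and higher HTZ1. All comparisons of colony mutants share the 3 filamentous wild-type arrays. In skn7, HTB1 stood at 10.90, 11.87 and 11.001, all below the lowest wild-type array at 11.95, the second array being the highest. Over all genes, 29.3% lay below the wild type without overlap in this way and 25.1% above it. HTB1 fell by 0.77 ± 0.23 (SE, limma adjusted p = 0.0072, n = 3 each). Without skn7 replicate 1 the change was -0.59 (adjusted p = 0.095). HTZ1 stood at 9.60, 9.70 and 9.37 in skn7 against 9.08, 9.34 and 9.06, with no overlap, and rose by 0.39 ± 0.16 (limma adjusted p = 0.048). That call was lost with quantile normalization (0.29, adjusted p = 0.133), in 4 other alternatives, and without skn7 replicate 1 or 2 or wild-type replicate 1 or 3. HTB2 was at 11.35, 11.31 and 11.08 (change 0.24 ± 0.15 SE, adjusted p = 0.184) and HHO1 at 7.97, 7.75 and 8.06 (change -0.37 ± 0.20, adjusted p = 0.127), neither past the test. The 2 calls among 4 stand beside 37.1% of all genes called.

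Around them in skn7, SWR1 complex genes fell in 8 of 11 cases and rose in 0, with the bromodomain protein BDF1 at -0.88 and YAF9 at -0.85. Of 12 histone gene regulators, 0 rose and 6 fell, HPC2 by 0.86 and YTA7, a boundary factor at histone genes, by 0.85. Of 14 histone modifying enzymes 0 rose and 6 fell, among them RAD6 (-0.77), the H3 methyltransferase SET1 (-0.66) and the H3 acetyltransferase GCN5 (-0.60). Among the 13 chaperone and assembly genes, 0 rose and 2 fell, POB3 of the FACT complex (-0.79) and the H2A-H2B chaperone NAP1 (-0.61). Over all genes 16% rose and 21% fell. Cell cycle lists moved as well, with 1 of 19 G1/S genes rising and 5 falling, 0 of 9 G2/M genes rising and 5 falling, and 5 of 9 M/G1 genes rising and 1 falling. Of 13 haploid-specific genes STE3 rose and 0 fell, with mean levels of 4.52 to 4.72 against 4.39 to 4.51, and of 8 meiosis genes 0 passed. The part of these lists in the histone values was not tested.

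In the other single deletions limma called 0 of the 4 histone genes, beside 0.126% of all genes in tec1, 0.342% in cup9, 24.8% in sfl1, 1.17% in sok2 and 23.6% in yap6. At an unadjusted p under 0.05, where no share of all genes was taken, the count was 0 in tec1, cup9, sfl1 and sok2 and 1 in yap6. That gene was HTZ1, at 9.39, 9.63 and 9.54 in yap6, with each array above the highest wild-type array, as held for 25.9% of genes (change 0.36 ± 0.16 SE, adjusted p = 0.097). HTB1 in sfl1 stood at 11.38, 12.14 and 11.22, with the second array just above the highest wild-type array (change -0.45 ± 0.23 SE, adjusted p = 0.129). In the 5 arrays each of tec1 and cup9, HTB1 ran from 11.66 to 12.04 and from 11.83 to 12.15, with changes of -0.13 (95% interval -0.53 to 0.28) and -0.09 (-0.50 to 0.31). In sok2 it was at 11.78, 11.54 and 11.94, and in yap6 at 11.95, 11.96 and 11.74. Leaving out the 2 libraries that read against their labels gave 0 calls in tec1 and cup9 as well.

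Over the 13 pairs of deletions, 3 histone gene values rose and 4 fell out of 52, beside 19.6% of all gene values called (9.93% higher and 9.72% lower). The 13 include cup9-yap6, where CUP9 was not low and 0 of 4 histone genes were called. The 4 that fell were all HTB1. In sfl1-skn7 it stood at 10.95, 11.65 and 11.17 and fell by 0.78 ± 0.23 (SE, limma adjusted p = 0.012), beside 19.4% of genes called. In sfl1-yap6 it stood at 11.47, 11.28 and 11.23 and fell by 0.70 ± 0.23 (adjusted p = 0.0081, beside 46.6%). The arrays of both strains lay below every filamentous wild-type array, as held for 26.6% and 28.9% of genes.

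HTB1 stood at 11.89, 11.31 and 11.02 in cup9-sfl1 and fell by 0.62 ± 0.23 (limma adjusted p = 0.027, beside 36.5%). In tec1-skn7 it stood at 11.87, 11.25 and 11.15 and fell by 0.60 ± 0.23 (adjusted p = 0.035, beside 31.9%). In each of these strains replicate 1 came close to the lowest wild-type array at 11.95, and none overlapped, as held for 31.9% and 24.7% of genes. The cup9-sfl1 and tec1-skn7 calls were lost when 1 of several arrays was left out, and the sfl1-skn7 call without its replicate 1 (-0.62, adjusted p = 0.116). For cup9-sfl1 these arrays were its replicates 2 and 3 (-0.43 without the latter, adjusted p = 0.215) and wild-type replicates 2 and 3. For tec1-skn7 they were its replicates 2 and 3 (-0.47 without the latter, adjusted p = 0.157) and each wild-type array. The sfl1-yap6 call held without any 1 of its 6 arrays.

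HTB1 had estimates of like size in 4 more pairs that did not pass: -0.56 in cup9-sok2 (adjusted p = 0.0865), -0.52 in sok2-skn7 (0.138), -0.51 in sfl1-sok2 (0.0955) and -0.46 in tec1-sfl1 (0.141). Their arrays, at 11.20 to 11.73, were all below the filamentous wild type, as held for 26.2%, 26.8%, 30.1% and 26% of genes. When only the groups compared were fitted, HTB1 passed in each of these 4 pairs (limma adjusted p = 0.022, 0.011, 0.027 and 0.019). No share of all genes is given for those fits. In cup9-skn7, cup9-yap6 and sok2-yap6, where arrays overlapped the wild type, the changes were -0.36, -0.19 and -0.24. Of 19 G1/S genes, 8 fell and 1 rose in cup9-sfl1, 1 fell and 4 rose in tec1-skn7, 1 fell and 0 rose in sfl1-skn7, and 5 fell and 1 rose in sfl1-yap6. Over all genes 21.9% fell and 14.6% rose in cup9-sfl1, and 14.6% fell and 17.3% rose in tec1-skn7. In sfl1-skn7 11.3% fell and 8.11% rose, and in sfl1-yap6 22.7% fell and 23.9% rose. Haploid-specific genes rose in 3, 3, 1 and 0 of 13 cases and fell in 0, with mean levels of 4.68 to 4.81, 4.69 to 4.81, 4.49 to 4.66 and 4.46 to 4.63. The part of either list in the HTB1 values was not tested.

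HTB2 was called higher than in the filamentous wild type in 2 of the 13 pairs, tec1-cup9 and tec1-sok2. The filamentous wild type ranked 19th of 21 groups in HTB2, so most groups lay above it, whether labelled as lacking TEC1 or not. HTB2 was at 11.359 to 11.375 in tec1-sfl1 and at 11.115 to 11.666 in tec1-skn7, without a call. Its change in tec1 alone was 0.21 (limma adjusted p = 0.739). In tec1-cup9 it stood at 11.64, 11.36 and 11.84 against 10.97, 11.17 and 10.88 in the filamentous wild type, and rose by 0.61 ± 0.15 (SE, limma adjusted p = 0.016), beside 1.8% of genes called. In tec1-sok2 it stood at 11.54, 11.59 and 11.21 and rose by 0.44 ± 0.15 (adjusted p = 0.043, beside 10%). The arrays did not overlap the wild type in either strain, as held for 18.4% and 15.5% of genes, although the lowest tec1-sok2 array at 11.21 was just above the highest wild-type array at 11.17. With quantile normalization neither call held, at 0.39 (adjusted p = 0.194) and 0.22 (adjusted p = 0.296). Both were also lost when only the groups compared were fitted (adjusted p = 0.186 and 0.317), with the replicate block, without wild-type replicate 1 or 3, without tec1-cup9 replicate 1 or 3, or without tec1-sok2 replicate 1 or 2. HTB1 in tec1-cup9 was at 12.34, 12.21 and 12.21, all above the wild type (change 0.22 ± 0.23 SE, adjusted p = 0.699). HTZ1 was at 9.66, 9.49 and 9.67 in tec1-cup9 (change 0.44, adjusted p = 0.144) and at 9.49, 9.71 and 9.69 in tec1-sok2 (change 0.47, adjusted p = 0.050064), so that neither passed. Of 13 haploid-specific genes, 1 rose in tec1-cup9 and 2 in tec1-sok2, beside 1.42% and 7.59% of all genes. Their mean levels were 4.56 to 4.87 and 4.43 to 4.86, and their part was not tested.

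The linker histone gene HHO1 was highest in sfl1-yap6. It stood there at 9.06, 8.65 and 8.69, above the filamentous wild type at 8.53, 7.95 and 8.41, above sfl1 at 7.89, 8.48 and 7.77 and above yap6 at 8.34, 8.06 and 8.24. Of all genes, 30.6% were above the wild type without overlap in this strain. HHO1 rose by 0.50 ± 0.20 against the wild type (SE, limma adjusted p = 0.032). The call was lost without wild-type replicate 2 (0.33, adjusted p = 0.230) and without sfl1-yap6 replicate 1 (0.37, adjusted p = 0.170), and missed the threshold when only the groups compared were fitted (adjusted p = 0.054). The sum of the changes in sfl1 (-0.25) and yap6 (-0.08) was exceeded by 0.83 ± 0.28 in the pair (limma, test of the departure itself, adjusted p = 0.036), beside 14.3% of genes with such a departure. This was the 1 call among 52 such values for the histone genes, against 2.26% over all genes. The departure missed the threshold without any 1 of 8 of its 12 arrays, at 0.69 to 0.89: wild-type replicates 1 and 3, sfl1 replicates 1 and 3, yap6 replicates 2 and 3, and sfl1-yap6 replicates 1 and 3. It also missed it when only the groups compared were fitted (adjusted p = 0.076), and with the replicate block. In the same strain 4 of 12 histone gene regulators fell and 0 rose, with SWI4 at -0.72, and 5 of 14 modifying enzymes fell and 1 rose, while 22.7% of all genes fell and 23.9% rose.

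**Figure D3:**
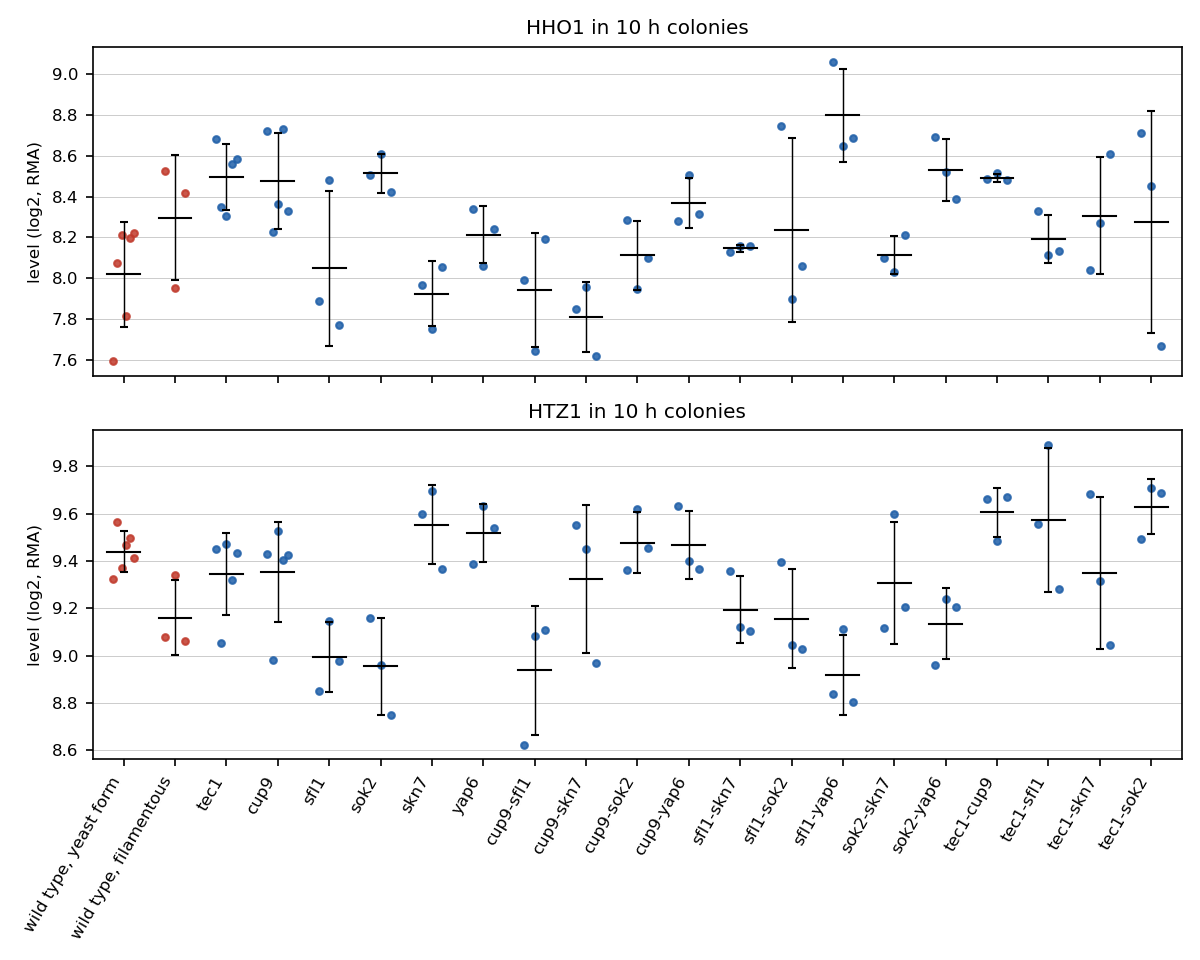
HHO1 (top) and HTZ1 (bottom) levels on the log2 scale in 10 h colonies by group, with points for arrays (wild type in red), horizontal bars for means and error bars for the SD. HHO1 reaches 8.65 to 9.06 in sfl1-yap6, and HTZ1 has its lowest mean, 8.92, in that strain.

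Ranked by group mean, HTB1 ran from 12.25 ± 0.08 in tec1-cup9 through 12.03 ± 0.09 in the filamentous wild type to 11.26 ± 0.53 in skn7 and 11.25 ± 0.36 in sfl1-skn7 (SD, n = 3 each). The yeast-form wild type lay 16th of 21 groups, at 11.43 ± 0.04 (SD, n = 6). Only tec1-cup9 had arrays that did not overlap those of the next group, and the other 19 neighbouring groups overlapped. HTB2 ran from 11.62 ± 0.24 in tec1-cup9 to 10.94 ± 0.21 in sfl1-yap6, with the filamentous wild type 19th at 11.01 ± 0.15. HHO1 ran from 8.80 ± 0.23 in sfl1-yap6 to 7.81 ± 0.17 in cup9-skn7, and HTZ1 from 9.63 ± 0.12 in tec1-sok2 to 8.92 ± 0.17 in sfl1-yap6. All 20 neighbouring groups overlapped in each of HTB2, HHO1 and HTZ1.

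The range of group means was 1.00 for HTB1, wider than in 52.5% of genes, 0.99 for HHO1 (51.6%), 0.71 for HTZ1 (25.5%) and 0.68 for HTB2 (21.7%). Across the 21 group means, which share strain background and low-ammonium medium in all but 1, HTB1 and HTB2 had a Pearson correlation of 0.105. The highest among the 4 genes was 0.572, between HTB2 and HTZ1. The genes whose group means followed the mean of HTB1 and HTB2 most closely were the lysyl-tRNA synthetase KRS1 (r = 0.866), the ATP synthase subunit ATP14 (0.849), the ribosomal protein genes RPL33B and RPS7B (0.844 each) and TAF6, which encodes a subunit of TFIID (0.842). Over the 10 SC groups, with the mean of the 8 core genes, their correlations were -0.318, -0.147, 0.516, 0.402 and 0.094.

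In SC medium the histone genes were compared between Ras pathway mutants and the wild type, beginning with how the 4 wild-type arrays differ among themselves. HTB1 was at 9.99, 9.98, 9.97 and 10.04 in wild-type arrays 1 to 4, and HHT2 at 10.98, 10.94, 11.06 and 11.01. These H2B and H3 genes held steady across the arrays. HTA2 was at 7.85, 7.80, 8.73 and 8.71, and HHF2 at 9.79, 9.78, 10.62 and 10.68, so that arrays 3 and 4 were higher. HTB2 ran the other way, at 9.73, 9.76, 8.93 and 8.88. HHT1 was at 10.61, 11.15, 12.01 and 12.20. These splits follow the array pairs described above, and values without either pair are given beside the results.

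The dominant-negative ras2a22 strain had lower levels of an H2A, an H3 and an H4 gene than the wild type. HTA2 stood at 6.86 and 6.78 in ras2a22, below all wild-type arrays, and fell by 1.45 ± 0.37 (SE, limma adjusted p = 0.032, n = 2 against 4). HHT2 stood at 10.15 and 9.81, also below all wild-type arrays, and fell by 1.01 ± 0.25 (adjusted p = 0.029). Its divergent neighbour HHF2 stood at 8.83 and 8.50 and fell by 1.55 ± 0.36 (adjusted p = 0.020). The 3 calls among 10 stand beside 8% of all genes called, 4.24% being lower, and 17.4% of genes lay below the wild type without overlap. Over the 5 mutants with the wild-type arrays as controls, these were 3 of 50 histone gene values, beside 2.11% of all. Of the core genes not called, HHT1 was at 10.22 and 10.38 (change -1.19, adjusted p = 0.116), HHF1 at 9.30 and 9.49 (-0.69, adjusted p = 0.076), HTA1 at 10.56 and 10.67 (-0.41), HTB1 at 9.48 and 9.85 (-0.33) and HTB2 at 8.95 and 9.26 (-0.22).

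The ras2a22 calls depended on which wild-type arrays were used. Without wild-type arrays 3 and 4, the changes were -1.004 for HTA2, -0.97 for HHT2 and -1.12 for HHF2, and none passed (adjusted p = 0.130, 0.085 and 0.084). Without arrays 1 and 2, they were -1.90, -1.05 and -1.99 and passed, and HHT1 (-1.80) and HHF1 (-0.79) passed too. No share of all genes is given for that fit. Leaving out array 3 or array 4 alone ended the HTA2 and HHT2 calls, and leaving out either ras2a22 array, or fitting only the groups compared (adjusted p = 0.098 to 0.140), ended all 3. Among genes that act on histones, SPT21, the activator of histone genes, rose by 3.32 (adjusted p = 0.022), and BRE1 fell by 1.26 (adjusted p = 0.039), in ras2a22. Of 19 G1/S genes 0 passed, with a median change of 0.84 and list mean levels of 4.62 to 4.63 against 3.36 to 4.92 in the wild type. BUD4 was the 1 of 9 G2/M genes that fell (-3.52). Of 13 haploid-specific and 8 meiosis genes 0 passed, the former at mean levels of 2.28 to 2.51 against 1.63 to 2.82, and their part was not tested.

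**Figure D4:**
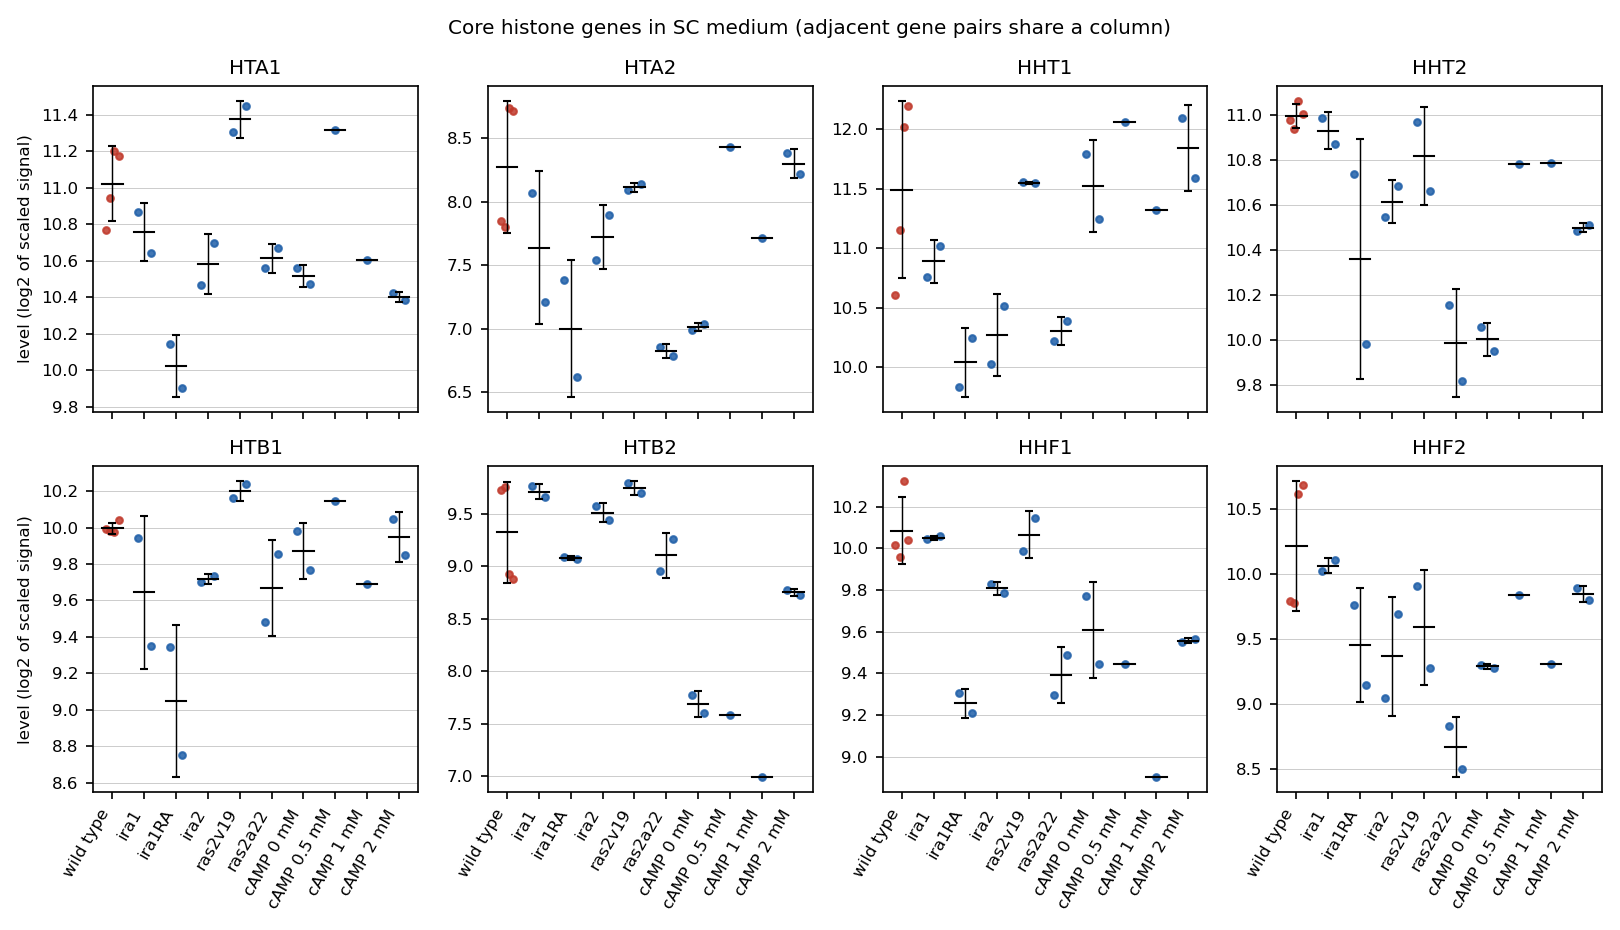
Levels of the 8 core histone genes in SC medium (log2 of scaled signal, vertical axes), with neighbouring genes of the genome in the same column, points for arrays (wild type in red), horizontal bars for means and error bars for the SD where there is more than 1 array. The wild-type arrays of HTA2, HTB2 and HHF2 split into pairs, and HTB2 is at 6.99 to 8.78 in the 6 arrays of ras1 ras2 pde2 strains, below the 14 others.

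The dominant-active and the dominant-negative RAS2 strains were also compared directly, which uses no wild-type array as control. Limma called 0 of 10 histone genes at the adjusted threshold, beside 6.62% of all genes, and 7 at an unadjusted p under 0.05. The share of all genes at the unadjusted threshold was not taken. Each of the 8 core genes was higher in ras2v19, by 0.53 for HTB1 to 1.29 for HTA2, with adjusted p from 0.099 to 0.340. HTA1 stood at 11.30 and 11.45 in ras2v19 and at 10.56 and 10.67 in ras2a22, and HTA2 at 8.09 and 8.14 against 6.86 and 6.78. HHT1 stood at 11.56 and 11.54 against 10.22 and 10.38. With the moderated variance fitted to the mean level 4 histone genes passed, as did 4 with the floor at the 25th percentile. No share of all genes is given for those fits, so these counts are not read as a result about histone genes. Quantile normalization moved the median of all genes in this comparison from 0.00 to 0.13.

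In the other SC mutants limma called 0 of 10 histone genes against the wild type, beside 0.234% of all genes in ira1, 0.0719% in ira1RA, 2.09% in ira2 and 0.144% in ras2v19. The counts at an unadjusted p under 0.05 were 0, 6, 3 and 0. The shares above hold for the adjusted threshold only. None was taken at the unadjusted one, so these counts are not read as a result about histone genes. In ira1RA the core genes had the lowest group means of the table in HTA1 (10.14 and 9.90), HTB1 (9.34 and 8.75) and HHT1 (9.83 and 10.24). Against the wild type their changes were -0.998 ± 0.22, -0.95 ± 0.26 and -1.45 ± 0.42 (SE, adjusted p = 0.191, 0.264 and 0.309), with each ira1RA array below each wild-type array, as held for 9.53% of genes. Without wild-type arrays 1 and 2, HTA1, HTA2, HHT1 and HHF1 passed in ira1RA. In that fit HHT1, HHF2 and HHO1 passed in ira2, and HTB2 in ras2v19, the last as a rise. HHO1 was at the floor of the table (-0.01) in each ira2 array. That fit was chosen after seeing the data. No share of all genes is given for it, so its calls are not read as a result about histone genes. Without arrays 3 and 4, 0 passed in any of the 5 mutants.

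The ira1RA strain differs from ira1 by the plasmid-borne IRA1RA. Limma called 0 of 10 histone genes between them, beside 0.126% of all genes. At an unadjusted p under 0.05, where no share of all genes was taken, the count was 3. The 8 core genes had changes from -0.57 for HHT2 to -0.85 for HHT1, with adjusted p of at least 0.367, ira1RA being lower. In ira1 itself HHF1 was at 10.04 and 10.06, inside the wild-type range of 9.96 to 10.32, and HTA1 at 10.87 and 10.64, of which the second lay below the lowest wild-type array at 10.77.

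In the ras1 ras2 pde2 strains, HTB2 was higher in the 2 mM cAMP arrays than in the 0 mM arrays. The 0 mM arrays came from another strain, with a plasmid, so strain, plasmid and cAMP cannot be told apart here. HTB2 stood at 7.78 and 7.61 at 0 mM, 7.58 at 0.5 mM, 6.99 at 1 mM, and 8.78 and 8.73 at 2 mM. Only the 2 mM arrays were higher than the 0 mM arrays, as held for 41% of genes. All 6 were below each of the 14 other SC arrays (8.88 to 9.79), for which no share of all genes was taken. Wild-type arrays 3 and 4 had the lowest HTB2 of the 14, at 8.93 and 8.88. The 0.5 to 2 mM arrays resembled these 2 (mean correlations 0.872 to 0.923) more than wild-type arrays 1 and 2 (0.759 to 0.778). For 0 mM these were 0.766 and 0.772 against 0.682 and 0.684. The part of this likeness in the HTB2 values was not tested. From 0 to 2 mM, HTB2 rose by 1.06 ± 0.34 (SE, limma adjusted p = 0.047, n = 2 each), the 1 call among 10 beside 19.6% of all genes. The call was lost without any 1 of the 4 arrays (0.97 to 1.15, adjusted p = 0.135 to 0.211) and with the replicate block. The mean level of the G1/S genes was 4.28 to 4.40 at 0 mM and 4.83 to 4.91 at 2 mM, and its part was not tested.

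Its neighbour HTA2 stood at 6.99 and 7.03 at 0 mM, 8.43 at 0.5 mM, 7.71 at 1 mM, and 8.38 and 8.22 at 2 mM (change 1.29 ± 0.42 SE, adjusted p = 0.053). HTA2 was thus high at 0.5 mM, where HTB2 was not. HTA1 was at 10.56 and 10.47 at 0 mM, 11.32 at 0.5 mM, 10.60 at 1 mM and 10.42 and 10.38 at 2 mM (change -0.11, adjusted p = 0.882). With quantile normalization that change was -0.90 and passed (adjusted p = 0.017), and HTA2 passed too (1.24, adjusted p = 0.049). HHT2 was at 10.05 and 9.95 at 0 mM and at 10.48 and 10.51 at 2 mM, with 10.78 and 10.79 between them (change 0.50, adjusted p = 0.317). Of genes that act on histones, 1 of 13 chaperone genes rose (NAP1, 1.35), 1 of 11 SWR1 complex genes rose (RVB1, 1.54), and 0 of either list fell. Of 12 histone gene regulators and 14 modifying enzymes 0 passed. Of 19 G1/S genes 1 rose, the sliding clamp POL30 (0.81), and of 9 M/G1 genes 1 fell, the chitinase gene CTS1 (-1.99). Over all genes 12.1% rose and 7.54% fell.

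Neighbouring histone genes did not all follow each other across SC groups. Over the 10 group means, which include groups of 1 array, the Pearson correlation was 0.835 for HTA1 and HTB1, 0.778 for HHT2 and HHF2, 0.131 for HHT1 and HHF1 and 0.003 for HTA2 and HTB2. Over the 6 groups without the ras1 ras2 pde2 strains, these were 0.976, 0.939, 0.853 and 0.676. Core genes that are not neighbours ranged from -0.437 (HTB2 and HHT1) to 0.816 (HTB1 and HHT1) over the 10 groups. High values were thus not particular to neighbours. HTA2 and HTB2 also split in opposite directions between the pairs of wild-type arrays, and the part of that split was not tested.

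HHO1 varied widely in SC medium. It was at the floor of the table (-0.01) in 4 of 20 arrays: wild-type array 1, ira2 arrays 1 and 2 and ras2v19 array 2. The other wild-type arrays were at 4.50, 5.63 and 5.28, the ira1 arrays at 1.57 and 0.04, the ras2a22 arrays at 6.37 and 7.07 and the 0 mM arrays at 6.47 and 6.61. HHO1 passed in no SC comparison in the full set of arrays, and no fold is given against groups at the floor. HTZ1 stood between 4.85 and 6.87 on all 20 arrays, with wild-type arrays at 6.35, 5.71, 6.87 and 6.51, and changes in the 8 SC comparisons from -0.70 (ira2, adjusted p = 0.467) to 0.12 (ira1RA against ira1).

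**Figure D5:**
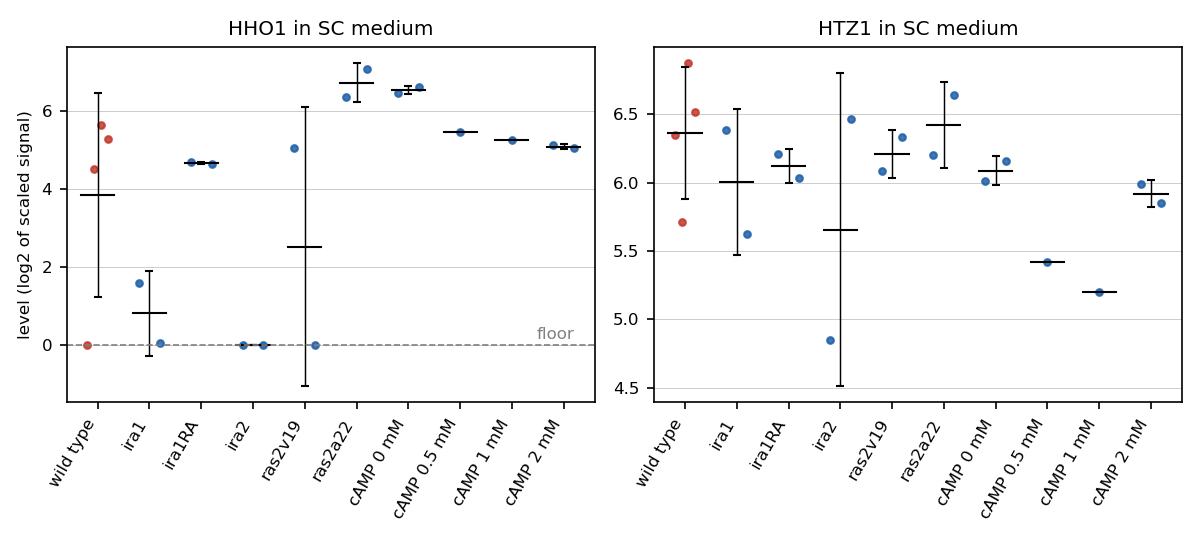
HHO1 (left) and HTZ1 (right) in SC medium (log2 of scaled signal, vertical axis), with points for arrays (wild type in red), horizontal bars for means, error bars for the SD and a dashed line at the floor of the HHO1 panel. HHO1 is at the floor in 4 arrays, while HTZ1 stays between 4.85 and 6.87.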

How the data were processed

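Gene expression was measured on Affymetrix arrays. The deposited colony values are on the log2 scale and were used unchanged, the submitters' processing notes naming RMA (array medians 6.27 to 6.68). The deposited SC values are linear intensity in whole numbers, with no step of their making given in the sources used here. Array medians were 28 to 30 and 6.77 to 25.6% of an array's values were at 1. They were scaled to the same median, set to at least the 10th percentile (0.993) and put on the log2 scale. The tables were analysed separately.

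Probe sets annotated to 1 gene (5668 of 6739 and 5595 of 6178) gave 5562 and 5560 genes, all matched by gene ID to RefSeq. For the 80 and 34 genes with more than 1, the probe set brightest on average was kept. Using limma 3.58.1 (R 4.3.3), 1 mean per group was fitted over all genes of a table (49 and 10 residual degrees of freedom), with eBayes without trend, two-sided contrasts and Benjamini-Hochberg adjustment over all genes within each of 41 comparisons. A gene was called at an adjusted p under 0.05. Nothing in the labels says that replicates came from separate cultures, so p-values measure the spread between these samples, part of which may be technical, and the number of arrays limits the precision.

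The members, the gene lists and the tests were chosen with earlier results of these data known. All 10 members are named, at most 3 called genes of each list by size of change in a comparison described, and the 5 genes most like the core histone genes over colony groups. Replicate numbers could mark shared days. Residuals of same-numbered arrays correlated above 0.1 in every pair only for filamentous against yeast-form arrays (0.113 to 0.254), where a replicate block left both calls in place and added HTZ1. The alternatives were normalizing by quantiles, dropping genes whose mean level is under the 25th percentile, the mean of a gene's probe sets, eBayes with trend and robust, a fit of only the groups compared, the replicate block, leaving out each array and a floor at the 25th percentile. Leaving out the 2 libraries that read against their labels, or a pair of wild-type SC arrays, was chosen after seeing the data.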

Additional observations from a re-analysis of the deposited data

Results flagged for a closer look

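The level of HTB1 in cup9 replicate 5 (12.15) stood far above the other 4 cup9 arrays (11.83 to 11.92). HTZ1 in cup9 replicate 2 (8.98) stood far below the other 4 (9.41 to 9.53). These were 2 of 22 sets of replicates tested for a value far from the others, and chance gives about 1 in 20. HHO1 in sfl1-yap6 departed from the sum of the changes in sfl1 and yap6 by 0.83, by the test of the departure itself, and the strain had the highest mean HHO1 level of the 21 colony groups (8.65, 8.69 and 9.06).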

How the results depend on the processing

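No called histone gene changed direction under any alternative. HTB1 between the forms and in sfl1-yap6 passed under all of them, at 0.55 to 0.78 and -0.78 to -0.65. With quantile normalization the counts of called histone genes became 1 between the forms, 1 in skn7 and 3 for cAMP. The replicate block gave 1 in skn7, 1 in yap6, 0 departures, 0 over the SC mutants and 2 for cAMP, and the fit of only the groups compared gave 1, 1, 0, 0 and 4. The block ended the calls of HTB2 in tec1-cup9 (adjusted p = 0.402), tec1-sok2 (0.406) and cAMP (0.053), of HTZ1 in skn7 (0.063), of the HHO1 departure (0.101) and of all 3 genes in ras2a22 (0.288 to 0.321). Outside the forms of the wild type, residuals of same-numbered arrays did not correlate above 0.1 in every pair. The block changed no other count by over 1.5 times. With trend and robust variance the counts were 1 in skn7, 8 over the SC mutants, 4 for ras2v19 against ras2a22 and 2 for cAMP. With the floor at the 25th percentile they were 6, 4 and 2 in the same SC results. The filter on mean level gave 2 for cAMP. Without the 2 libraries that read against their labels skn7 had 1. Without wild-type SC arrays 3 and 4 the SC mutants had 0 and cAMP 2, and without arrays 1 and 2 the SC mutants had 13, ras2v19 against ras2a22 had 2 and cAMP 2. No share of all genes called stands beside the counts in this section, so they are not read as a result about histone genes. Leaving out 1 array at a time gave 2 to 2 between the forms, 0 to 1 in sfl1, 0 to 3 in skn7, 3 to 9 over the pairs of deletions, 0 to 1 departures, 0 to 6 over the SC mutants, 0 to 1 for ras2v19 against ras2a22 and 0 to 0 for cAMP. The cause of these shifts was not tested. A group left with a single array takes the spread of the others by assumption. Quantile normalization moved the median of all genes by 0.14 in ira1 and 0.20 in ira2 against the wild type in SC medium.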
